A study of Mus musculus with 6 samples.

Results

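Insm1, Hes6, Neurod1, Dcx, Tubb3, Stmn2, Elavl3, Elavl4 and Map2 trace the path from a committed neuronal progenitor to a young neuron. These 9 genes were taken by symbol from the 22048 genes of a table of read counts and RPKM (reads scaled by gene length and by the reads counted in the sample), and their order follows that path. The table came from RNA-Seq of hypothalamic neural stem/progenitor cells (NSC/NPCs) of C57BL/6 mouse fetuses, with 3 samples whose dams were exposed to high estradiol (HE) and 3 controls (NC). Dams of both groups were 8 weeks old and received gavage between E5.5 and E11.5. HE dams were given estradiol valerate at 100 μg/kg/d and NC dams the corn oil solvent, although the sample labels call NC untreated. In both groups the hypothalami of male fetuses were taken at E14.5, and the cells were grown in EGF and bFGF as floating neurospheres, harvested at first passage and pooled from 2 mice per sample. Whether mice of different samples came from different litters is not stated, so p-values measure the spread between these 6 samples.

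Neurons arise when proneural bHLH factors, such as Neurod1, pair with E proteins, bind E-boxes and switch on a program that takes a progenitor out of the cell cycle. Insm1 and Hes6 act close to that decision, and Dcx, Tubb3, Stmn2 and Map2 form or regulate the microtubules of the growing neuron. The RNA-binding Elavl proteins stabilize and splice neuronal mRNAs. EGF and bFGF hold neurospheres in a proliferating, undifferentiated state. In bulk RNA, fewer cells of a type and less RNA per cell cannot be told apart.

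The letters upstream of 4 members are shown because Hes6, the most abundant of the 9, holds E-boxes there, while Tubb3 and the genes with the clearest difference between HE and NC, Elavl4 and Map2, do not. The sequences are those of RefSeq on GRCm38.p6, the mm10 build, which listed a promoter for 7 of the 9 members. Insm1 and Stmn2 had none. They run 5′ to 3′ on the gene's own strand and end at the start of its RefSeq record, so that Elavl4 is shown with 222 bases and Map2 with 123. For Hes6 they are chr1:91414039-91414288 (minus strand), for Tubb3 chr8:123411303-123411552 (plus strand), for Elavl4 chr4:110351940-110352161 (minus strand) and for Map2 chr1:66175079-66175201 (plus strand). Capitals mark matches to the E-box CANNTG.
Hes6: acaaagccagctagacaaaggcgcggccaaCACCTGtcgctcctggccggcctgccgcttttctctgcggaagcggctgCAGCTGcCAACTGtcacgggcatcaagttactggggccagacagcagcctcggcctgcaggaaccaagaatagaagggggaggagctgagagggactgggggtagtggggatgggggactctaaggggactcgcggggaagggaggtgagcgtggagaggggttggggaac
Tubb3: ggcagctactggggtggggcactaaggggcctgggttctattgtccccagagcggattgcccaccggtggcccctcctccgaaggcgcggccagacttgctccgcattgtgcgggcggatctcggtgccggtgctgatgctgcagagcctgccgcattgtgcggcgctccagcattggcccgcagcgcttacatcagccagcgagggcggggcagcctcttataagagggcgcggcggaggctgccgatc
Elavl4: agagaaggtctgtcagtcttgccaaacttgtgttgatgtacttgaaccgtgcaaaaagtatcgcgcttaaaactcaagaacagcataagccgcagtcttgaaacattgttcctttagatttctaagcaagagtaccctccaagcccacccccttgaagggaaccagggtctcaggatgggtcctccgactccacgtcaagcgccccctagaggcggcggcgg
Map2: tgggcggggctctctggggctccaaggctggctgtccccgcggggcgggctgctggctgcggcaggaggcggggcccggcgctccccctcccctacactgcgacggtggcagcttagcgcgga

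In the 250 bases before the most upstream listed start, Hes6 held 3 E-boxes, Elavl3 held 2 and Neurod1 held 1. Dcx, Tubb3, Elavl4 and Map2 held 0. An E-box of any kind was found in 66.1% of the 27025 promoters listed, and CAGCTG, found in Hes6 and Elavl3, in 12.7%. CANNTG is the same on both strands, so each match was counted once. GC boxes (GGGCGG, either strand), the letters bound by Sp1, numbered 5 in Map2, 4 in Neurod1, 2 in Tubb3 and 1 in Elavl3, against at least 1 in 33.0% of all promoters. TATAAA was found on either strand in Dcx and Elavl3 (13.0% of all). Of the 250 bases counted, 177 in Dcx, 127 in Map2, 123 in Elavl3 and 28 in Elavl4 lay inside the gene's own RefSeq record. Every Elavl3 match and the Dcx TATAAA lay in that part. So did the Map2 GC boxes that began 97, 82 and 44 bases before the listed start. A match describes the letters only.

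Reads counted on genes were 16078675 to 19137059 per sample, so that 1 read on 1 kilobase was worth 0.0523 to 0.0622 RPKM. HE3, the shallowest sample, stood apart from the others. It held the lowest value of 44.4% of all tested genes and the highest of 24.5%, and results that rest on it are also given without it. NC1 stood apart in the summed level of 11 pituitary and endocrine markers, at 329 RPKM against 12.0 to 19.97 RPKM in the other 5 samples, almost all of it from Pomc at 302 RPKM (1.54 to 3.89 RPKM elsewhere). The corticotroph factor Tbx19 was at 0.317 RPKM in NC1 and between 0 and 0.0350 RPKM elsewhere, and Cga was at 0.0559 RPKM in NC1 and 0 in the other samples. Of the markers of the labelled cell type, Sox2 (97.3 to 209 RPKM) and Nes (154 to 247 RPKM) were abundant, whereas the hypothalamic progenitor gene Rax was at 0.0313 to 0.251 RPKM.

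Averaged over the 6 samples, the order of levels per gene length was Hes6 (64.2 RPKM), Tubb3 (29.8), Map2 (20.4), Elavl3 (4.50), Stmn2 (4.38), Insm1 (1.34), Elavl4 (1.34), Dcx (0.305) and Neurod1 (0.106). Hes6 lay above Tubb3 in all 6 samples, and Map2 above Elavl3, Stmn2 above Insm1 and Elavl4 above Dcx likewise in all 6. Tubb3 exceeded Map2 in 5 of 6 samples and Dcx exceeded Neurod1 in 5 of 6. Elavl3 and Stmn2, with Elavl3 higher in 3 of 6, were not separated, nor were Insm1 and Elavl4, with Insm1 higher in 3 of 6. Thus the best known markers of young neurons were spread over a wide range of levels, with Tubb3 and Map2 above 16 RPKM and Dcx below 1 RPKM in every sample. The gene length used was long for Map2 (16449 bases) and Dcx (12647 bases), which lowers their RPKM at a given number of reads.

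**Figure D1:**
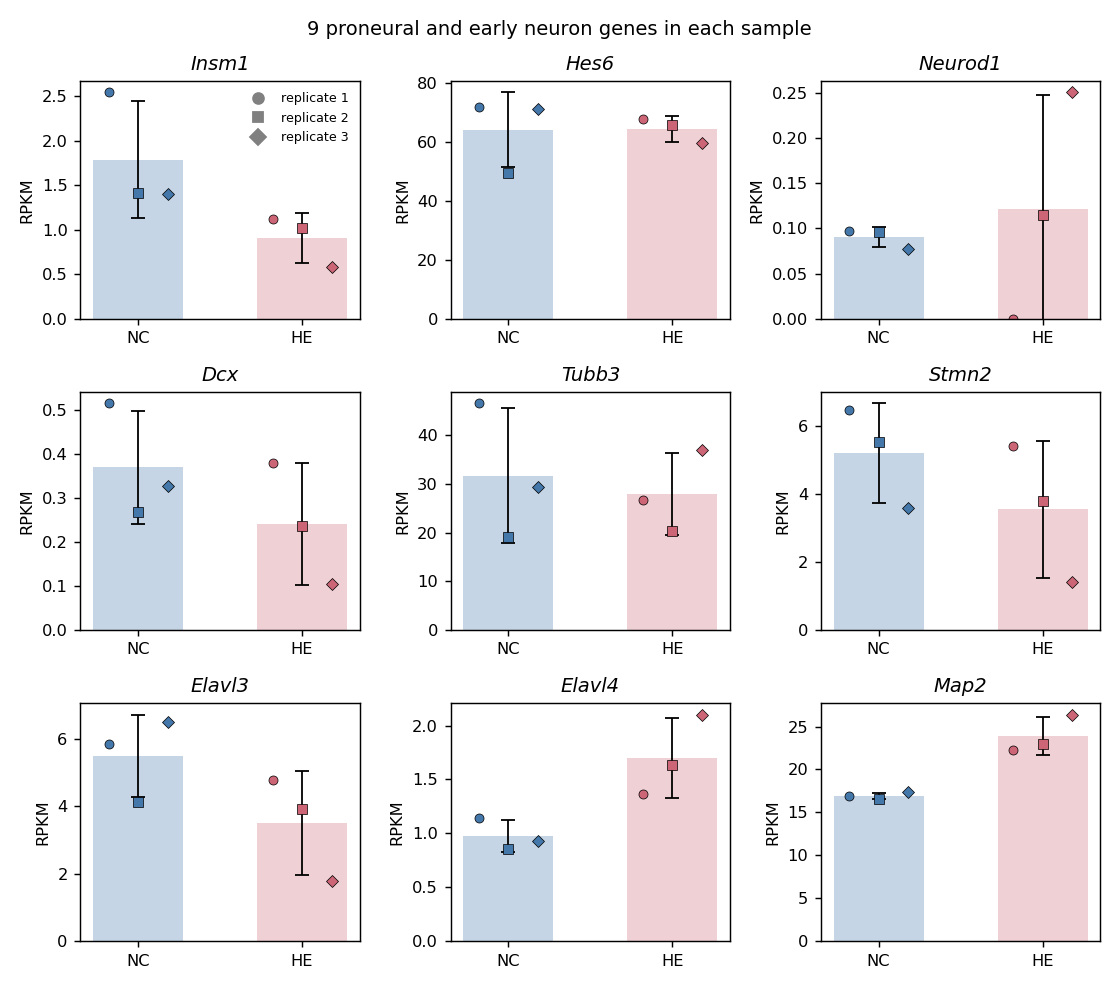
RPKM of each of the 9 genes in the 3 NC (blue) and 3 HE (red) samples, 1 panel per gene with its own linear axis from 0. Points are samples, with the replicate number as symbol, bars are group means and whiskers are 1 SD (n = 3 per group). HE lies wholly above NC in Elavl4 and Map2 and wholly below it in Insm1, and the groups overlap in the other 6 panels.

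HE was compared with NC with limma on log2(RPKM + 0.1), with Benjamini-Hochberg adjustment over the 13952 genes that passed a filter on low counts, and 8 of the 9 members passed it. Fold changes on this scale understate those of low genes. None of the 8 members passed an adjusted p of 0.05 (the smallest was 0.195 in limma), and 0 of all 13952 genes passed that limit together with a log2 fold change of 1 (percent called 0.0), in limma and in limma's voom, although 2858 had an unadjusted p under 0.05. At an unadjusted p under 0.05, Elavl4 and Map2 were higher in HE (2 of 8, against 8.68% of all tested genes) and Insm1 was lower (1 of 8, against 11.8%). In either direction that is 3 of 8 against 20.5%. The same 3 genes were those whose groups did not overlap, 2 higher (14.8% of all genes) and 1 lower (17.9%), or 3 of 8 against 32.7% in either direction. Without HE3, 2 members were higher (9.35% of all genes) and 0 lower (10.5%) at an unadjusted p under 0.05 in limma. The median log2 fold change of the 8 was -0.32, against -0.06 over all tested genes. Without HE3 it was -0.17, and without NC1 it was -0.10.

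Insm1 (ENSMUSG00000068154, chr2:146221997-146225020) encodes a zinc finger repressor that drives progenitors into neurogenic divisions and endocrine precursors into differentiation. It was at 2.54, 1.42 and 1.40 RPKM in NC1 to NC3 and at 1.12, 1.01 and 0.582 RPKM in HE1 to HE3. Each HE sample lay below each NC sample, although HE1 was close to the 2 lower NC samples, and NC1 was well above them. Insm1 had 148 reads in NC1 (95% exact Poisson interval 125 to 174, which covers counting error only) and 29 in HE3 (19.4 to 41.6). NC averaged 1.79 ± 0.657 and HE 0.905 ± 0.284 RPKM (SD, n = 3 per group), and the log2 fold change was -0.90 (SE 0.32, 95% interval -1.66 to -0.14, adjusted p = 0.211 in limma). The 2 outermost samples carried part of this difference. Without HE3 it was -0.64 and without NC1, the sample with the Pomc signal, it was -0.63, and in neither fit was the unadjusted p under 0.05. The exact two-sided permutation test gave p = 0.1, which is also the smallest p that 20 assignments of 6 samples allow.

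Hes6 (ENSMUSG00000067071, chr1:91411483-91414038), a bHLH-Orange protein that opposes Hes1 and so favours neuronal differentiation, was the most abundant member. Its values were 71.8, 49.5 and 71.1 RPKM in NC and 67.8, 65.8 and 59.5 RPKM in HE. All 3 HE values lay between the lowest and the middle NC value, and the means were 64.1 ± 12.6 and 64.4 ± 4.35 RPKM (SD, n = 3 each). The log2 fold change was 0.02, with an interval of -0.36 to 0.41 (adjusted p = 0.937 in limma). Smaller differences than this interval spans were not resolved by 3 samples per group, and the sign turned when NC2 was left out (-0.15).

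Neurod1 (ENSMUSG00000034701, chr2:79452637-79456636), a proneural bHLH factor of late progenitors and young neurons, was barely detected. It had 5, 5 and 4 reads in NC and 0, 6 and 11 reads in HE, which did not pass the filter. In RPKM these are 0.0976, 0.0957 and 0.0774 in NC and 0, 0.115 and 0.251 in HE. The 0 of HE1 allows up to 0.0614 RPKM (3 reads), and the HE samples lay on both sides of the NC samples, so no difference was detectable at this depth. The gene next to the neuronal end of the bHLH cascade was thus at the limit of detection in cultures where Hes6 had at least 1713 reads per sample.

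Dcx (ENSMUSG00000031285, chrX:143855842-143933396), a microtubule-binding protein of migrating neuroblasts, was at 0.514, 0.269 and 0.326 RPKM in NC and at 0.380, 0.236 and 0.103 RPKM in HE. The groups overlapped, with HE1 above NC2 and NC3 and HE3 (21 reads) below all others. The log2 fold change was -0.52 (SE 0.37, interval -1.38 to 0.35, adjusted p = 0.412 in limma), and -0.19 without HE3.

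Stmn2 (ENSMUSG00000027500, chr3:8509527-8561604) encodes a growth cone stathmin that destabilizes microtubules. It was at 6.48, 5.54 and 3.59 RPKM in NC and at 5.43, 3.81 and 1.42 RPKM in HE. Both HE1 and HE2 lay within the NC range, and HE3 was far below it. The log2 fold change was -0.69 (SE 0.47, interval -1.79 to 0.42, adjusted p = 0.400 in limma), and -0.15 without HE3.

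Tubb3 (ENSMUSG00000062380, chr8:123411553-123422015), the neuronal class III β-tubulin stained by the antibody Tuj1, was at 46.6, 19.1 and 29.4 RPKM in NC and at 26.7, 20.3 and 37.0 RPKM in HE. All HE values lay within the NC range, which was set by NC1 at its top and NC2 at its bottom. With means of 31.7 ± 13.9 and 28.0 ± 8.38 RPKM (SD, n = 3 each) the log2 fold change was -0.13 (SE 0.34, interval -0.94 to 0.68, adjusted p = 0.839 in limma). Its sign rested on single samples, being 0.20 without NC1 and 0.08 without HE2, and with sample weights the log2 fold change was -0.61 (adjusted p = 0.199 in limma).

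Map2 (ENSMUSG00000015222, chr1:66175202-66442583), which stabilizes microtubules in the cell body and dendrites, was at 16.9, 16.6 and 17.3 RPKM in NC and at 22.3, 23.0 and 26.4 RPKM in HE. The 3 NC values were nearly equal and all 3 HE values were above them, with 5207 to 7208 reads behind each value. From 16.9 ± 0.356 to 23.9 ± 2.21 RPKM (SD, n = 3 per group), the log2 fold change was 0.49 (SE 0.11, interval 0.24 to 0.74, adjusted p = 0.195 in limma), a fold of 1.40. It did not rest on HE3 (0.42 without it) or on NC1 (0.49 without it). Permuting the samples gave an exact two-sided p of 0.1. With weights per sample, which set HE3 to 0.158 against 0.852 to 2.87 for the others, Map2 was the single member under an adjusted p of 0.05 (log2 fold change 0.43, adjusted p = 0.0326 in limma), without reaching the fold cutoff of 1. By both cutoffs that fit called 268 of all genes and 0 members.

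Elavl3 and Elavl4, whose proteins bind AU-rich stretches of mRNAs, had log2 fold changes of opposite sign. Elavl2, among the other neuronal RNA-binding genes listed below, was at 0.36 with overlapping groups (adjusted p = 0.449 in limma). Elavl3 (ENSMUSG00000003410, chr9:22015005-22052146) was at 5.86, 4.13 and 6.51 RPKM in NC and at 4.79, 3.93 and 1.79 RPKM in HE. HE1 overlapped the NC range, HE2 was just under NC2, and HE3 was the lowest by a wide margin. The log2 fold change was -0.72 (SE 0.36, interval -1.58 to 0.14, adjusted p = 0.288 in limma) and -0.31 without HE3. Elavl4 (ENSMUSG00000028546, chr4:110203737-110351939) was at 1.14, 0.854 and 0.931 RPKM in NC and at 1.37, 1.64 and 2.10 RPKM in HE, with 88 to 182 reads per sample. Every HE value exceeded every NC value, and the step from NC1 to HE1 was small. The log2 fold change of Elavl4 was 0.74 (SE 0.22, interval 0.22 to 1.25, adjusted p = 0.195 in limma), a fold of 1.66. It was 0.58 without HE3 and 0.84 without NC1.

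**Figure D2:**
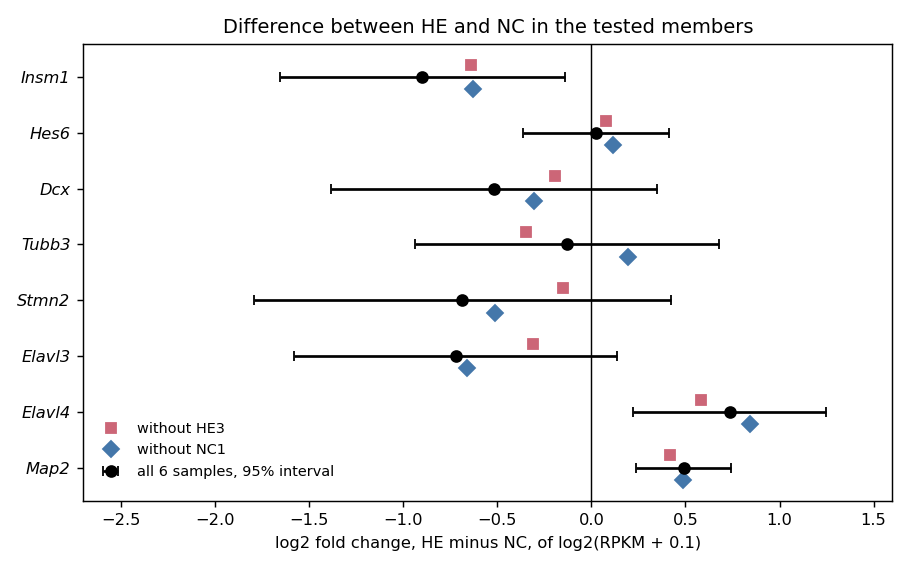
Log2 fold change (HE minus NC, log2(RPKM + 0.1) scale) of the 8 tested genes. Black circles with 95% intervals are from all 6 samples, squares from the fit without HE3 and diamonds from the fit without NC1. Intervals of Elavl4 and Map2 lie above 0 and that of Insm1 below it, while Dcx, Stmn2 and Elavl3 move toward 0 without HE3.

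HE3 was lowest in 4 of the 8 tested members (Insm1, Dcx, Stmn2 and Elavl3) and highest in 2 (Elavl4 and Map2), against the 44.4% and 24.5% of all genes given above. NC1 was highest in 5 of 8 (20.3% of all genes were highest there), namely Insm1, Hes6, Dcx, Tubb3 and Stmn2, and NC2 was lowest in Hes6, Tubb3, Elavl4 and Map2. Over the 6 samples, which share library and depth for all genes, Insm1 and Dcx had a Pearson r of 0.91, Dcx and Elavl3 of 0.91, Dcx and Stmn2 of 0.90 and Insm1 and Stmn2 of 0.85. Elavl4 and Map2 had an r of 0.95. Between these genes the values ran the other way, with r = -0.87 for Insm1 and Map2 and r = -0.77 for Elavl3 and Elavl4. Tubb3 followed neither, with r = -0.18 with Stmn2 and 0.01 with Map2, and the highest r of Hes6 with any member was 0.54. These coefficients describe 6 samples in 2 groups and carry no test.

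Because related genes went different ways, 7 ratios of members and their paralogs or functional partners were formed within each sample. The pairs were picked after the single values were known, so the ratios describe them. The RPKM ratio of Elavl4 to Elavl3 was 0.194, 0.207 and 0.143 in NC and 0.286, 0.416 and 1.17 in HE. It was higher in every HE sample, by 1.53 on the log2 scale (0.95 without HE3). Map2 to Map1b was 0.382, 0.434 and 0.421 in NC and 0.820, 0.935 and 1.53 in HE, a log2 difference of 1.36 (1.09 without HE3). Per length, mRNA of Map1b, whose protein serves growing axons, was thus more abundant than that of Map2 in 5 samples and less abundant in HE3. Map2 to Map1a (log2 difference 1.27, 0.98 without HE3) and Map2 to Mapt, the tau gene (1.09, 0.54 without HE3), were also higher in each HE sample. Stmn3 to Stmn2 was 4.16, 3.68 and 8.43 in NC and 5.85, 7.57 and 41.0 in HE. These groups overlapped, as did those of Map2 to Tubb3 and of Dcx to Dclk1.

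**Figure D3:**
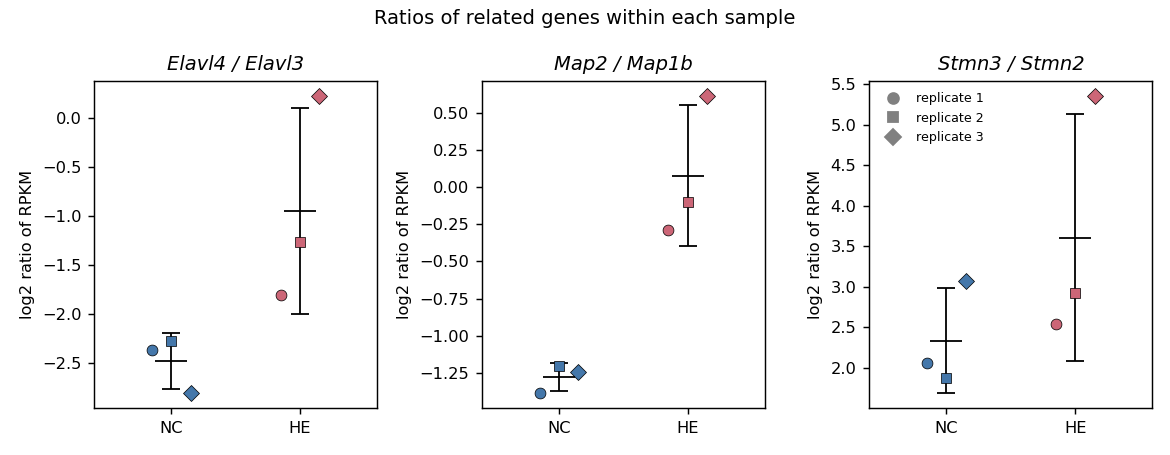
Log2 ratio of RPKM within each sample for Elavl4 to Elavl3, Map2 to Map1b and Stmn3 to Stmn2. Points are samples (blue NC, red HE, replicate number as symbol), horizontal lines are group means and whiskers 1 SD (n = 3). HE lies wholly above NC in the first and second panels, and HE3 has the highest ratio in all 3.

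The genes that surround the members in the neurogenic pathway were read from lists, by counts at an unadjusted p under 0.05 in limma and by medians, to be set against 8.68% higher, 11.8% lower and a median of -0.06 over all tested genes. Of 13 other proneural bHLH genes, 2 passed the filter. Bhlhe22 was lower in HE, with 0.590, 1.05 and 0.458 RPKM in NC and 0.251, 0.267 and 0.372 RPKM in HE (log2 fold change -0.95, adjusted p = 0.197 in limma). Neurog1, Neurog2, Neurog3, Neurod2, Neurod4 and Neurod6 were all at or below 0.235 RPKM in each sample, and Ptf1a had 0 reads in all of them. The 3 E proteins had a median of -0.19 with 0 past the limit in either direction. Their most abundant members were Tcf3 (43.9 RPKM on average) and Tcf12.

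Of the 10 antagonists of proneural factors 9 were tested, with a median of 0.17, 0 higher and 1 lower. The lower one was Id4 (-0.71, adjusted p = 0.242 in limma), which without HE3 was at -0.45. Id3 and Id2, which sequester E proteins, were the most abundant at 103 and 66.8 RPKM on average. Without HE3 the count was 3 higher and 0 lower, with Id2 among the 3 (log2 fold change 0.92). Of 12 genes of the REST complex, which silences neuronal genes in progenitors, 1 was higher (Hdac2, 0.35, adjusted p = 0.195 in limma) and 2 were lower (Ctdsp2, -0.58, and Ehmt2, -0.37). Rest itself averaged 14.0 ± 0.859 in NC against 11.8 ± 3.01 RPKM (SD, n = 3 per group) in HE. Its log2 fold change was -0.27, or -0.05 without HE3, and it was named after its value was seen. The 12 tested of 15 other commitment factors, with Sox4 (43.1 RPKM) and Sox11 (20.7 RPKM) the most abundant, held 0 past the limit. Their median was -0.14, and 0.02 without HE3.

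Of 9 tested targets and cell cycle exit genes, 2 were lower and 0 higher. These were Dll4, a Notch ligand (-0.75, adjusted p = 0.229 in limma), and Cdkn1b, an inhibitor of cyclin-dependent kinases (-0.70, adjusted p = 0.237 in limma). The median of -0.45 was 0.04 without HE3, with 1 gene higher and 1 lower. Gadd45g (140.0 RPKM) and Btg2 (72.0 RPKM), immediate targets of proneural factors, were the most abundant and had log2 fold changes of -0.61 and -0.36, neither past the limit. Without HE3 these were -0.24 for Gadd45g and 0.05 for Btg2. Cycling markers moved with the groups. All 6 of 6 (Mki67, Top2a, Cdk1, Ccnb1, Pcna and Mcm2) were higher in HE at an unadjusted p under 0.05 in limma, with a summed level of 149 to 200 RPKM in NC and 241 to 366 RPKM in HE and a median on the log2 scale of 0.70 higher (0.49 without HE3). Their part in the values of the members was not tested.

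Among 27 tested of 28 other neuronal cytoskeleton genes, 5 were lower and 0 higher, with a median of -0.18 (-0.12 without HE3, with 3 lower and 2 higher). Map1b was at 44.1, 38.2 and 41.1 RPKM in NC and at 27.1, 24.6 and 17.2 RPKM in HE (log2 fold change -0.86, SE 0.18, adjusted p = 0.195 in limma). Map1a (-0.76), Stmn4 (-1.34), Tagln3 (-0.58) and Kif5c (-0.68, the fifth, outside the naming rule) were the other lower genes. Of the 27, groups did not overlap in 3 that were lower (17.9% of all genes were) and in 5 that were higher (14.8% of all genes). The structural tubulins Tuba1a (1126 RPKM in NC, 1468 RPKM in HE) and Tubb2b (663 and 837 RPKM) were far more abundant than Tubb3 and lay above NC in each HE sample, with log2 fold changes of 0.38 and 0.34 that missed the limit (adjusted p = 0.252 and 0.246 in limma). Of 14 tested paralogs of the members, Stmn4 was lower and Tubb4b (0.35, adjusted p = 0.221 in limma) higher, with a median of 0.26 (0.16 without HE3 and 0.14 without NC2), and Tubb2b and Tubb5 were the most abundant.

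The 12 other neuronal RNA-binding genes had a median of -0.10 (-0.11 without HE3), with Rbfox1 (0.56) and Nova1 (0.48) higher, Celf3 (-0.80) lower, and Ptbp2 (0.26) and Celf4 (-0.78), the most abundant, not past the limit. Of 24 tested of 27 synapse and transmitter genes, 3 were higher and 3 lower, with a median of 0.06 (0.00 without HE3, with 5 higher and 3 lower). Camk2b, a kinase subunit of the postsynapse, averaged 22.7 ± 1.08 in NC against 35.7 ± 3.98 RPKM (SD, n = 3 per group) in HE, and its log2 fold change was 0.65 (adjusted p = 0.195 in limma). Cplx1, a complexin of synaptic vesicle release, was higher as well (1.05), whereas the GABA-synthesizing enzyme Gad2 (-0.997) was lower. Uchl1 (65.4 RPKM) and Nsg1 (31.0 RPKM) were the most abundant and did not pass the limit.

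**Figure D4:**
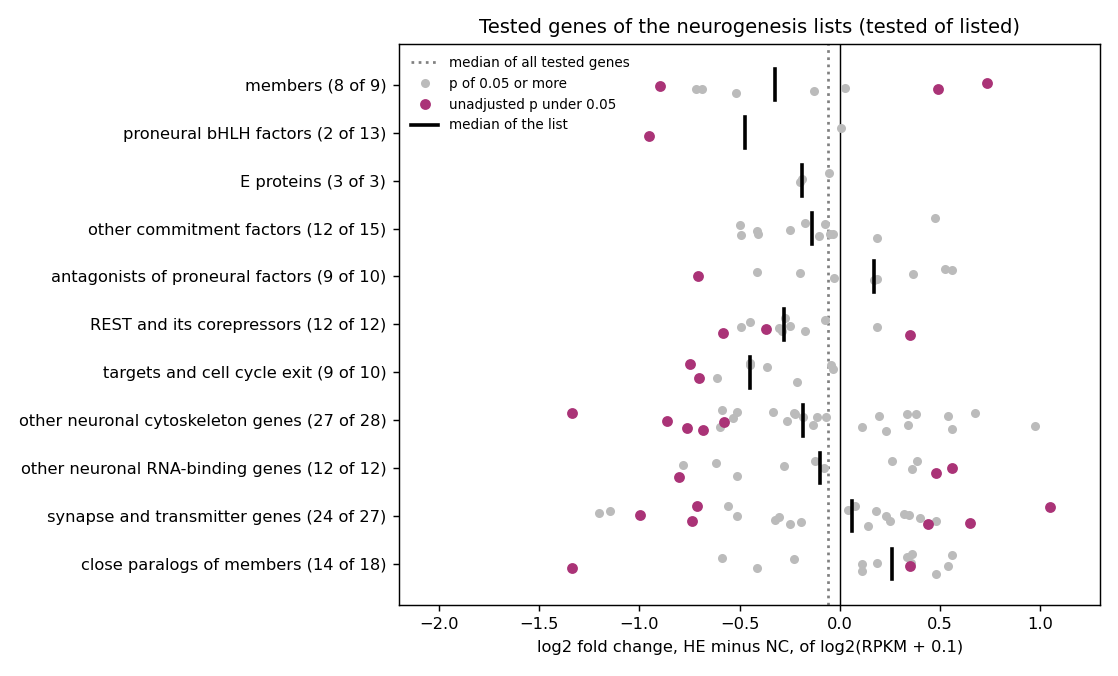
Log2 fold change (HE minus NC) of each tested gene in the members and 10 lists, with the number tested of those listed on the vertical axis. Large purple points have an unadjusted p under 0.05 in limma, grey points do not, black bars are list medians and the dotted line is the median of all tested genes (-0.06). Most lists hold genes on both sides of 0, while the E proteins and the targets and cell cycle exit genes lie wholly below it (without HE3 the median of the latter was 0.04).

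Markers of other cell types were read in the same way. Neural progenitor markers, 9 of 10 tested, were at a median of -0.26 on the log2 scale (-0.23 without HE3), with 8 lower and 1 higher in value, of which 1 lower was past the limit (3 lower without HE3). Oligodendrocyte lineage markers, 9 of 9 tested, summed to 298 to 330 RPKM in NC and 330 to 517 RPKM in HE. Yet 7 of the 9 were lower in value in HE and 2 higher, with a median of -0.20 and 0 past the limit. Without HE3 the median was 0.14, with 1 higher and 0 lower past the limit. Astrocyte markers, 7 of 7 tested, summed to 1386 to 1714 RPKM in NC and 945 to 1423 RPKM in HE. In value 3 were higher and 4 lower, with a median of -0.27 (-0.18 without HE3). Past the limit were 1 higher and 0 lower. Ependymal markers summed to 55.8 to 77.8 and 31.5 to 61.1 RPKM. All 5 were lower in value, with a median of -0.72, and 2 of them were past the limit. Without HE3 the median was -0.46, with 0 past the limit. Mesenchymal markers summed to 21.98 to 71.2 RPKM in NC and 62.0 to 141 RPKM in HE. All 6 tested were higher in value, with a median of 0.78 (1.24 without HE3), and 2 of them were past the limit (4 without HE3). Endothelial markers (2.47 to 3.43 and 4.15 to 5.25 RPKM) and microglia markers (0.377 to 0.882 and 1.72 to 9.19 RPKM) were low in sum. Of the 3 tested endothelial markers, 2 were higher in value and 1 lower, with a median of 0.55 (0.81 without HE3). Past the limit were 1 higher and 0 lower (2 higher without HE3). All 3 tested microglia markers were higher in value, with a median of 0.32 (0.27 without HE3), and 1 was past the limit in either fit. The endothelial gene Pecam1 was at 0.170 RPKM or less in every sample. The microglial gene C1qa was at 0, 0 and 0.0508 RPKM in NC and at 0.967, 0.252 and 3.17 RPKM in HE, where each sample exceeded each NC sample and HE3 lay above the values of Elavl4, Insm1 and Dcx in all samples. The part of these cell types in the values of the members was not tested.

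The genes whose values over the 6 samples most resembled those of each member were found among 11268 tested genes with a mean of at least 1 RPKM (11269 for Dcx and Neurod1). For Insm1 they were Epha5 (r = 0.997) and Ccni, for Hes6 Hbegf (r = 0.977) and Adat2, and for Neurod1 Tmed8 and Lipt2. For Dcx they were P2ry6 (r = 0.997) and Zfp57, for Tubb3 Elk3 (r = 0.984) and Rad9a, and for Stmn2 Zfp703 and Kat5. For Elavl3 they were Wwox and Map4k3, for Elavl4 Fkbp1a (r = 0.997), and for Map2 Nudcd1 (r = 1.00) and Taco1. Map2 had 224 genes with an r over 0.95 and Stmn2 had 206, whereas Tubb3 had 5 and Hes6 had 11. With 6 samples such values are a description and carry no test.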

How the data were processed

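Per the labels, submitters' processing notes name CASAVA 1.7, TopHat2 and the mm10 build. The aligner's version, counting tool, annotation, gene length definition and strand setting are not given in the sources used here, so close paralogs (tubulin, Elavl and stathmin genes) and overlapping genes may share reads. The authors deposited raw read counts per gene and RPKM, which the formula reproduced within 4.99e-07. Large counts carry commas that the unit check did not read as numbers, and for that reason alone edgeR and DESeq2, the study's test, were not run. With the commas removed all counts were readable whole numbers. They served the filter, the depth and a voom alternative.

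The main test was limma 3.58.1 (R 4.3.3) on log2(RPKM + 0.1), with a trend of variance on level and group as the only term. Tested genes had at least 15 reads in all and, in at least 3 samples, a rate worth 10 reads at median depth. Calls needed an adjusted p under 0.05 and a log2 fold change of 1 either way. Single values also had an exact permutation over samples. The fit was tested on simulated data. Depth was 16078675 to 19137059 reads per sample. Poisson intervals and the floor of 3 reads cover counting error only.

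Symbols were found for 21781 of 22048 identifiers, and coordinates are those of RefSeq GRCm38.p6. Of each list, up to 4 genes with the smallest unadjusted p under 0.05 and the 2 most abundant were named. Kif5c, Rest, Mapt, Stmn3, Dclk1, Elavl2, the single markers and the untested bHLH genes were named after their values were seen. Some results for single genes are not reported here. Members and lists were chosen with earlier results of these data known. Alternatives were another pseudocount (1), scaling by median of ratios, a filter of 1 read in all or of 10 reads in each sample, voom, sample weights, a replicate block, and each sample left out in turn.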

Additional observations from a re-analysis of the deposited data

How the results depend on the processing

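Of 104 alternative log2 fold changes of the members (8 genes, 13 fits), 98 kept their direction and their side of the adjusted threshold in limma. Hes6, near 0, turned to -0.0072 with sample weights and to -0.15 without NC2 and -0.02 without HE1, within a range of -0.15 to 0.12 over the fits that left out 1 sample. Tubb3 turned to 0.20 without NC1 and 0.08 without HE2, within -0.44 to 0.20, and was at -0.61 with sample weights. By both cutoffs sample weights called 268 of all genes instead of 0. By the adjusted p alone they put 1 member, Map2, under 0.05 instead of 0. With each sample left out in turn, 0 to 103 of all genes were called (103 without NC3), and 2 to 5 members had an unadjusted p under 0.05 instead of 3 (5 without HE1, 2 without HE3 or NC1). The causes were not tested. Over all 13 fits the adjusted p in limma was 0.0326 to 0.502 for Map2, 0.0636 to 0.502 for Elavl4 and 0.0771 to 0.510 for Insm1, and the unadjusted p stayed under 0.05 for Map2 and Elavl4. Of 130 list medians, 121 moved by less than 1 SD of the replicates and 9 by more, among them REST (-0.07 with sample weights, -0.05 without HE3). That SD differed between lists, so a small move on this measure does not mean a kept sign. For the targets and cell cycle exit genes it was 0.58. Their turn from -0.45 to 0.04 without HE3, or to 0.05 with sample weights, thus counted among the 121.

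Samples share replicate numbers, but the labels tie no number to a litter or day. Correlations were taken after the group mean of each gene was subtracted. Same-numbered samples of the 2 groups then correlated at 0.0603 to 0.156 and others at -0.0764 to -0.00114. Such deviations sum to 0 within a group, so positive values force negative ones and their contrast is no test of pairing. All 6 correlated best with their own number, at most a hint from the data. With the replicate block 0 genes were called and 4 members had an unadjusted p under 0.05, Stmn2 being added. Depth limits Neurod1, with 0 to 11 reads per sample.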
